A study of Rattus norvegicus with 8 samples.

Results

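The mitochondrial ribosomal proteins are the nuclear-encoded proteins of the ribosome inside mitochondria. They were taken as every gene of the deposited table whose symbol begins with Mrps (small subunit) or Mrpl (large subunit) followed by a digit. 74 of the 32662 genes in the table met this rule, 30 of the small and 44 of the large subunit, each on 1 row. Transcript levels came from RNA sequencing of cultured oligodendrocyte precursor cells, glial cells that divide and later mature into the cells that form myelin. They were prepared from the cerebral cortex of Sprague Dawley rat pups 1 to 2 days old. 4 libraries came from control cultures, and 4 from cultures held for 6 h without oxygen or glucose, a treatment called oxygen glucose deprivation (OGD) that stands in for ischaemia in culture. Both groups were grown alike: mixed glial cells were kept in 20% serum, and the cells that did not adhere were then held for 4 to 5 days with the growth factors PDGF and FGF (10 ng/ml of either), 2 mM glutamine, 1% antibiotic and 2% B27. No genotype or allele was recorded, and nothing in the labels says whether the 4 libraries of a group came from separate cultures or animals, so p-values here reflect library spread alone, which may be technical.

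The mitochondrial ribosome translates only the few messenger RNAs encoded by mitochondrial DNA, whose products are core subunits of the respiratory chain and of ATP synthase. Its ribosomal RNAs come from mitochondrial DNA, while all of its proteins are made in the cytosol and imported. The small subunit binds the messenger RNA and decodes it, and the large subunit joins the amino acids and releases the new chain at the inner membrane. Many of the proteins have a bacterial homologue, and the others were gained during the evolution of mitochondria. Oligodendrocyte precursors depend on oxidative metabolism as they grow and divide, and the lineage is known to be vulnerable to ischaemia.

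Levels are given as FPKM, the fragments of a gene scaled by its length and by the library's total. A gene was tested if it reached 1 FPKM in at least 4 of the 8 libraries, and differences were tested with limma on log2(FPKM + 1) over all 11149 such genes. A gene is called higher or lower in OGD where its Benjamini-Hochberg adjusted p over all tested genes was under 0.05. Log2 changes are OGD minus control on that scale, with their standard errors (SE), and understate the change of low genes. Values of single libraries are listed in the order of replicates 1 to 4.

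The libraries differed in ways that touch the members. Total fragment numbers are unknown, and relative depths read from low values ran from 0.816 to 1.18, with control replicate 1 set to 1. Control replicate 1 was the highest control library for 53 of the 70 tested members, control replicate 2 the lowest for 41, and OGD replicate 4 the highest OGD library for 30. Genes encoded by mitochondrial DNA took 25.1% to 27.9% of the summed FPKM in control libraries, against 20.4% to 30.4% after OGD, which moves every other FPKM value. All 8 markers of oligodendrocyte precursors were present, with a summed level of 2275 to 2422 FPKM in control and 1449 to 1670 FPKM in OGD, and 6 of the 8 fell. Of 11 microglial markers 10 fell, from a sum of 214 to 347 FPKM to 67.6 to 129 FPKM, with none at 0. The 6 tested astrocyte markers of 8 included 1 that fell (sums of 166 to 175 and 164 to 173 FPKM), and the 8 neuronal markers 2 that rose and 3 that fell (279 to 343 and 270 to 348 FPKM). For comparison, 22.7% of all tested genes were called higher and 26.8% lower. The 7 vascular and stromal markers summed to at most 0.482 FPKM, with Cldn5 and Dcn at 0. In bulk RNA, fewer cells of a type and less RNA per cell cannot be told apart, and the part of these shifts in the members' values was not tested.

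Of the 74 members, 70 passed the filter, 29 of the small and 41 of the large subunit. Mrpl1 was listed at 0 to 0.38 FPKM and Mrpl36 at 0 to 0.67 FPKM, and Mrpl53 and Mrps21l were listed at 0 in all 8 libraries. Since a listed 0 can be a failed estimate in such a table, nothing is drawn from these 4. The tested members had a median control level of 24.9 FPKM, from 5.19 FPKM for Mrpl40 to 105 FPKM for Mrps21.

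After OGD, 8 of the 70 tested members rose and 23 fell, while 39 missed the threshold. The called share was 44.3%, against 49.5% of all tested genes. The higher share of 11.4% stood beside 22.7% of all tested genes, and the lower share of 32.9% beside 26.8%. The median log2 change of the members was -0.06, against -0.04 over all tested genes. Most changes were small: 5 of the called members moved by at least 1.5-fold, against 17.4% of all tested genes, and 1 by at least 2-fold on the log2(FPKM + 1) scale, against 4.19%. All 5 of these fell: Mrps15, Mrps12, Mrpl49, Mrpl20 and Mrpl23. Every OGD library lay above every control library for 8 members, against 20.7% of all tested genes, and below it for 19, against 24.1%. When FPKM was rescaled outside the genes encoded by mitochondrial DNA, 12 members were higher and 21 lower. Without control replicate 1, the control library with the highest member sums, the counts were 12 and 19, and without control replicate 3 they were 5 and 20.

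**Figure D1:**
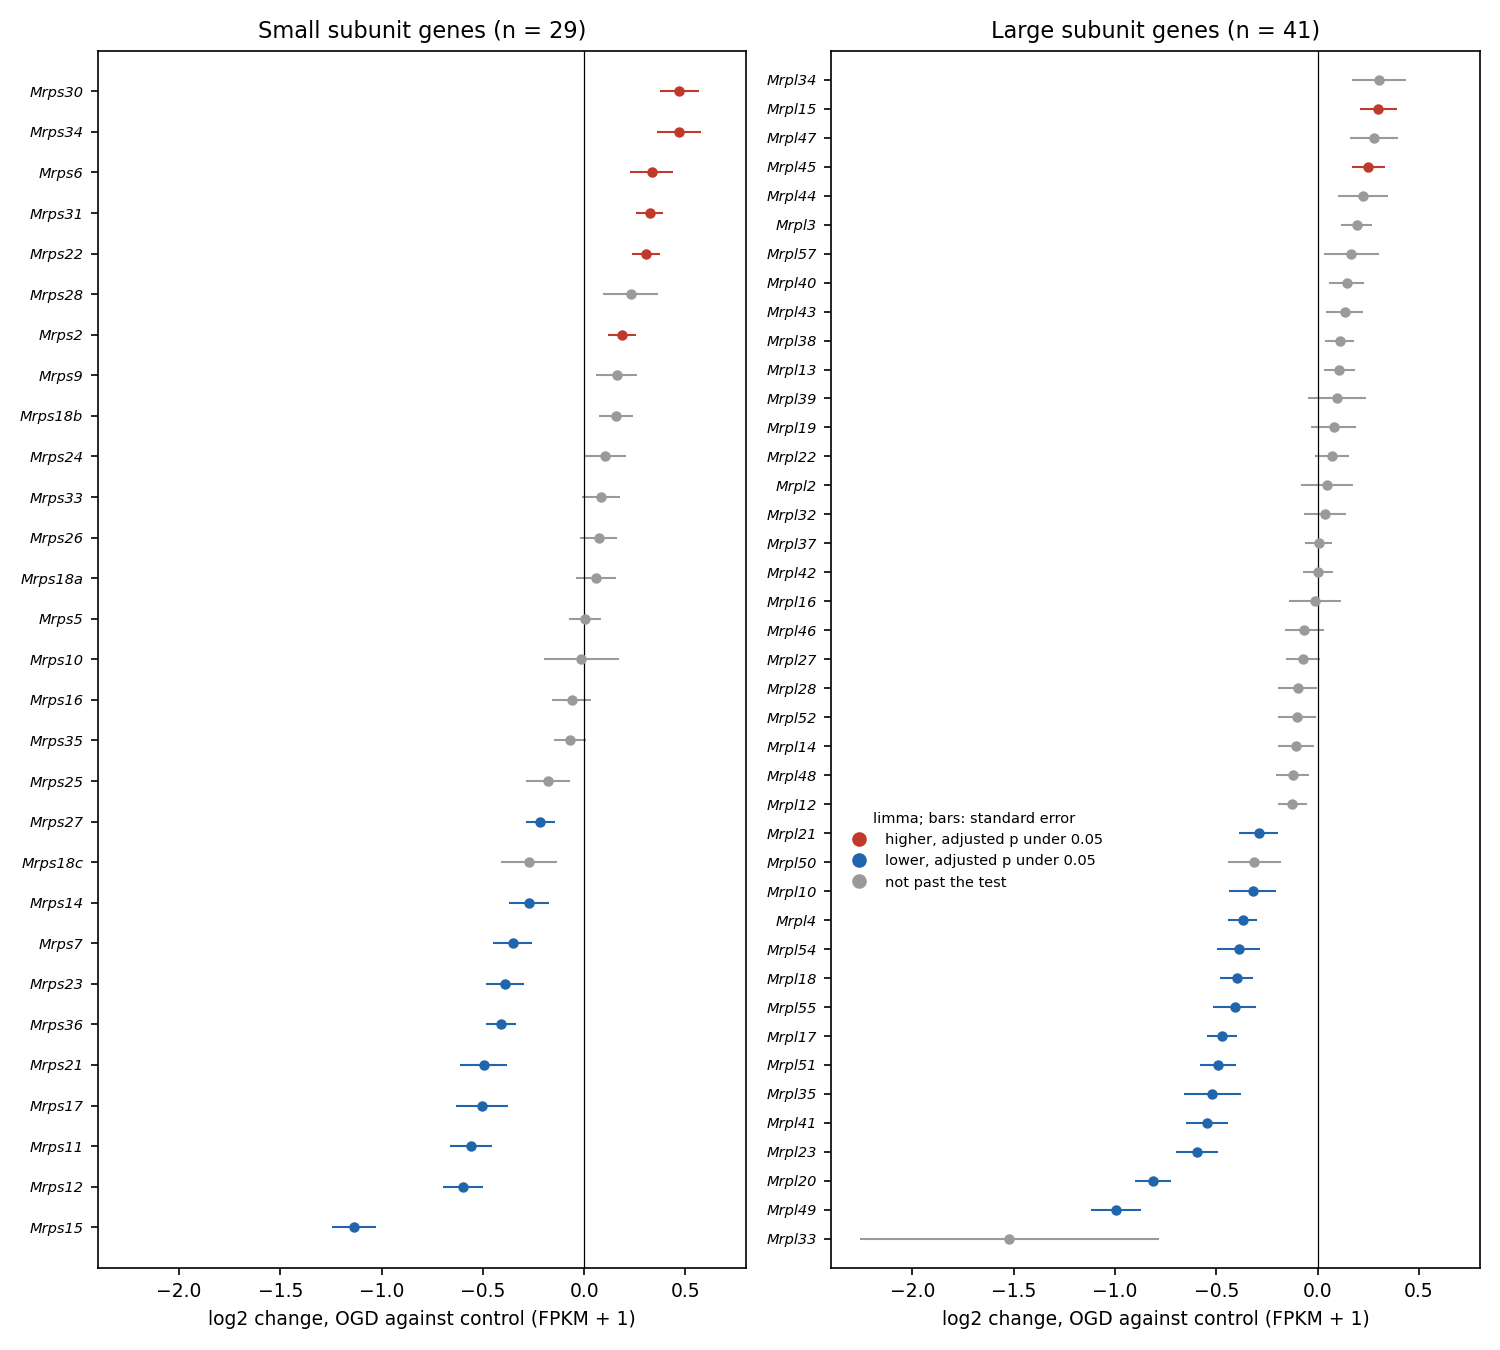
Log2 change of OGD against control for each of the 70 tested members, with bars of 1 SE, small subunit in the left and large subunit in the right panel. Changes run from -1.52 for Mrpl33, which did not pass the test, to 0.47 for Mrps30 and Mrps34.

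6 of the 8 rises carried a small subunit name. In the small subunit, by gene name, 6 of 29 tested members rose and 10 fell, with a median log2 change of -0.01. In the large subunit 2 of 41 rose and 13 fell, with a median of -0.07. The higher shares were 20.7% in the small and 4.88% in the large subunit, against 22.7% of all tested genes, and the lower shares 34.5% and 31.7%, against 26.8%. The small subunit's median turned positive, at 0.02, with the rescaling outside mitochondrially encoded genes. It was 0.05 without OGD replicate 1 and -0.11 without OGD replicate 4, where the large subunit's median was also -0.11. A difference between the subunits in these shares was not tested. 3 small subunit names do not match the place of their protein: Mrps30 and Mrps18a sit in the large subunit in structures of the mammalian ribosome, and Mrps36 is a component of 2-oxoglutarate dehydrogenase. Counted by structure, the small subunit had 5 rises and 9 falls among 26, and the large subunit 3 rises and 13 falls among 43. Both ways of counting leave out the large subunit rows with lower-case symbols described below. Of these, mrpl9 rose, mrpl11 fell and mrpl24 did not pass the test.

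Among small subunit proteins with a bacterial homologue, the largest fall was that of Mrps15 (ENSRNOG00000008279), which in bacteria binds the small ribosomal RNA early in assembly. Control libraries held Mrps15 at 10.1, 8.72, 9.58 and 10.4 FPKM, and OGD libraries at 3.34, 3.63, 4.87 and 3.77 FPKM. The groups did not overlap and lay far apart relative to their spread, with means of 9.72 ± 0.757 and 3.90 ± 0.671 FPKM (SD, n = 4 each). The log2 change was -1.14 ± 0.11 (SE) with limma adjusted p = 1.78e-05, the only called member change of at least 2-fold on the log2(FPKM + 1) scale. Mrps15 was also the lowest tested small subunit member in control cells, at 9.72 FPKM.

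Mrps12, whose bacterial homologue lies at the decoding centre and bears on the accuracy of decoding, fell next. Mrps12 levels were 29.4, 22.8, 27.9 and 21.9 FPKM in control and 16.6, 17.3, 16.6 and 15.1 FPKM in OGD libraries. All OGD libraries lay below the controls, which themselves spread from 21.9 to 29.4 FPKM, and the log2 change was -0.60 ± 0.10 (SE, limma adjusted p = 6.20e-04). Mrps11 belongs to the platform of the subunit. The controls had 35.0, 32.2, 33.5 and 32.0 FPKM of Mrps11 and the OGD libraries 26.2, 18.0, 20.9 and 24.5 FPKM. OGD replicates 2 and 3 were the lowest and the groups stayed apart, with a log2 difference of -0.56 ± 0.10 (SE, limma adjusted p = 0.00122).

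Mrps17, a protein that binds the body of the small subunit RNA in bacteria, fell by a similar amount. Mrps17 was measured at 24.0, 19.1, 17.3 and 21.8 FPKM in the control and at 11.4, 14.2, 17.1 and 14.2 FPKM in the OGD libraries. The groups were barely apart, with OGD replicate 3 just below control replicate 3, and the log2 change was -0.50 ± 0.13 (SE, limma adjusted p = 0.00693). Mrps21, the homologue of bacterial S21, was the most abundant member in control cells. Control libraries held Mrps21 at 128, 88.3, 98.4 and 104 FPKM, and OGD libraries at 82.9, 67.8, 64.4 and 79.3 FPKM. Control replicate 1 stood highest and every OGD library lay under every control, with a log2 difference of -0.50 ± 0.12 (SE, limma adjusted p = 0.00467). The falls of Mrps7 (-0.35) and Mrps14 (-0.27), both in the head of the subunit, passed the test while their groups overlapped, and that of Mrps14 was lost when any 1 of 5 libraries was left out.

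2 of 16 tested small subunit genes listed as conserved (12.5%) rose and 7 (43.8%) fell, against 22.7% and 26.8% of all tested genes. Mrps6 is the homologue of bacterial S6, a platform protein. Mrps6 levels were 15.1, 11.03, 15.1 and 14.0 FPKM in control and 16.6, 16.0, 18.9 and 18.8 FPKM in OGD libraries. The OGD libraries lay above all controls, and the log2 change was 0.33 ± 0.10 (SE, limma adjusted p = 0.0214), which was lost without OGD replicate 3 (adjusted p = 0.0582). Mrps2 is the homologue of bacterial S2. The controls had 21.9, 19.3, 21.5 and 19.8 FPKM of Mrps2 and the OGD libraries 21.9, 24.3, 24.1 and 24.1 FPKM. OGD replicate 1 was the lowest of its group and only just above control replicate 1, and the small log2 change of 0.19 ± 0.07 (SE, limma adjusted p = 0.0438) was lost when any 1 of 6 libraries was left out.

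Among small subunit proteins listed as without a bacterial homologue, 3 of 10 (30.0%) rose and 2 (20.0%) fell. The shares of all tested genes were 22.7% and 26.8%. Mrps34 is needed for a stable small subunit. Mrps34 was measured at 13.7, 13.1, 10.8 and 14.9 FPKM in the control and at 17.5, 16.6, 18.3 and 21.7 FPKM in the OGD libraries. OGD replicate 2 stood nearest to the controls and no library overlapped, with a log2 difference of 0.47 ± 0.11 (SE, limma adjusted p = 0.00442). Mrps31, a mitochondrion-specific protein of the head, followed. Control libraries held Mrps31 at 12.5, 12.2, 13.0 and 12.8 FPKM, and OGD libraries at 16.3, 14.9, 16.7 and 16.3 FPKM. Its groups were apart, and the log2 change was 0.32 ± 0.07 (SE, limma adjusted p = 0.00249). Mrps22 is known from inherited disorders of mitochondrial translation. Mrps22 levels were 24.1, 21.2, 23.6 and 22.0 FPKM in control and 30.1, 28.9, 26.2 and 28.1 FPKM in OGD libraries. The OGD libraries all exceeded the controls, with a log2 difference of 0.31 ± 0.07 (SE, limma adjusted p = 0.00414). The 2 that fell were Mrps23 (log2 change -0.39, from 27.9 ± 3.54 to 20.9 ± 1.55 FPKM) and Mrps27 (-0.22, from 17.7 ± 0.542 to 15.1 ± 1.12 FPKM), and the call of Mrps27 was lost when any 1 of 6 libraries was left out.

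The 3 genes whose name and place differ did not move together. Mrps30, a large subunit protein by structure, had the joint largest rise. The controls had 15.6, 13.9, 14.2 and 15.6 FPKM of Mrps30 and the OGD libraries 20.3, 22.6, 17.4 and 23.7 FPKM. The lowest OGD library exceeded the highest control, and the log2 change was 0.47 ± 0.10 (SE, limma adjusted p = 0.00227). Mrps18a, also a large subunit protein, did not pass the test. Mrps18a was measured at 47.3, 35.7, 44.3 and 41.3 FPKM in the control and at 39.2, 41.0, 48.6 and 46.5 FPKM in the OGD libraries. Its groups overlapped, and the log2 change was 0.06 ± 0.10 (SE, limma adjusted p = 0.647). Mrps36, which recruits the E3 enzyme of 2-oxoglutarate dehydrogenase, fell. Control libraries held Mrps36 at 67.1, 67.4, 60.4 and 63.1 FPKM, and OGD libraries at 53.0, 51.0, 44.7 and 44.6 FPKM. The groups did not overlap, with a log2 difference of -0.41 ± 0.07 (SE, limma adjusted p = 0.00101).

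**Figure D2:**
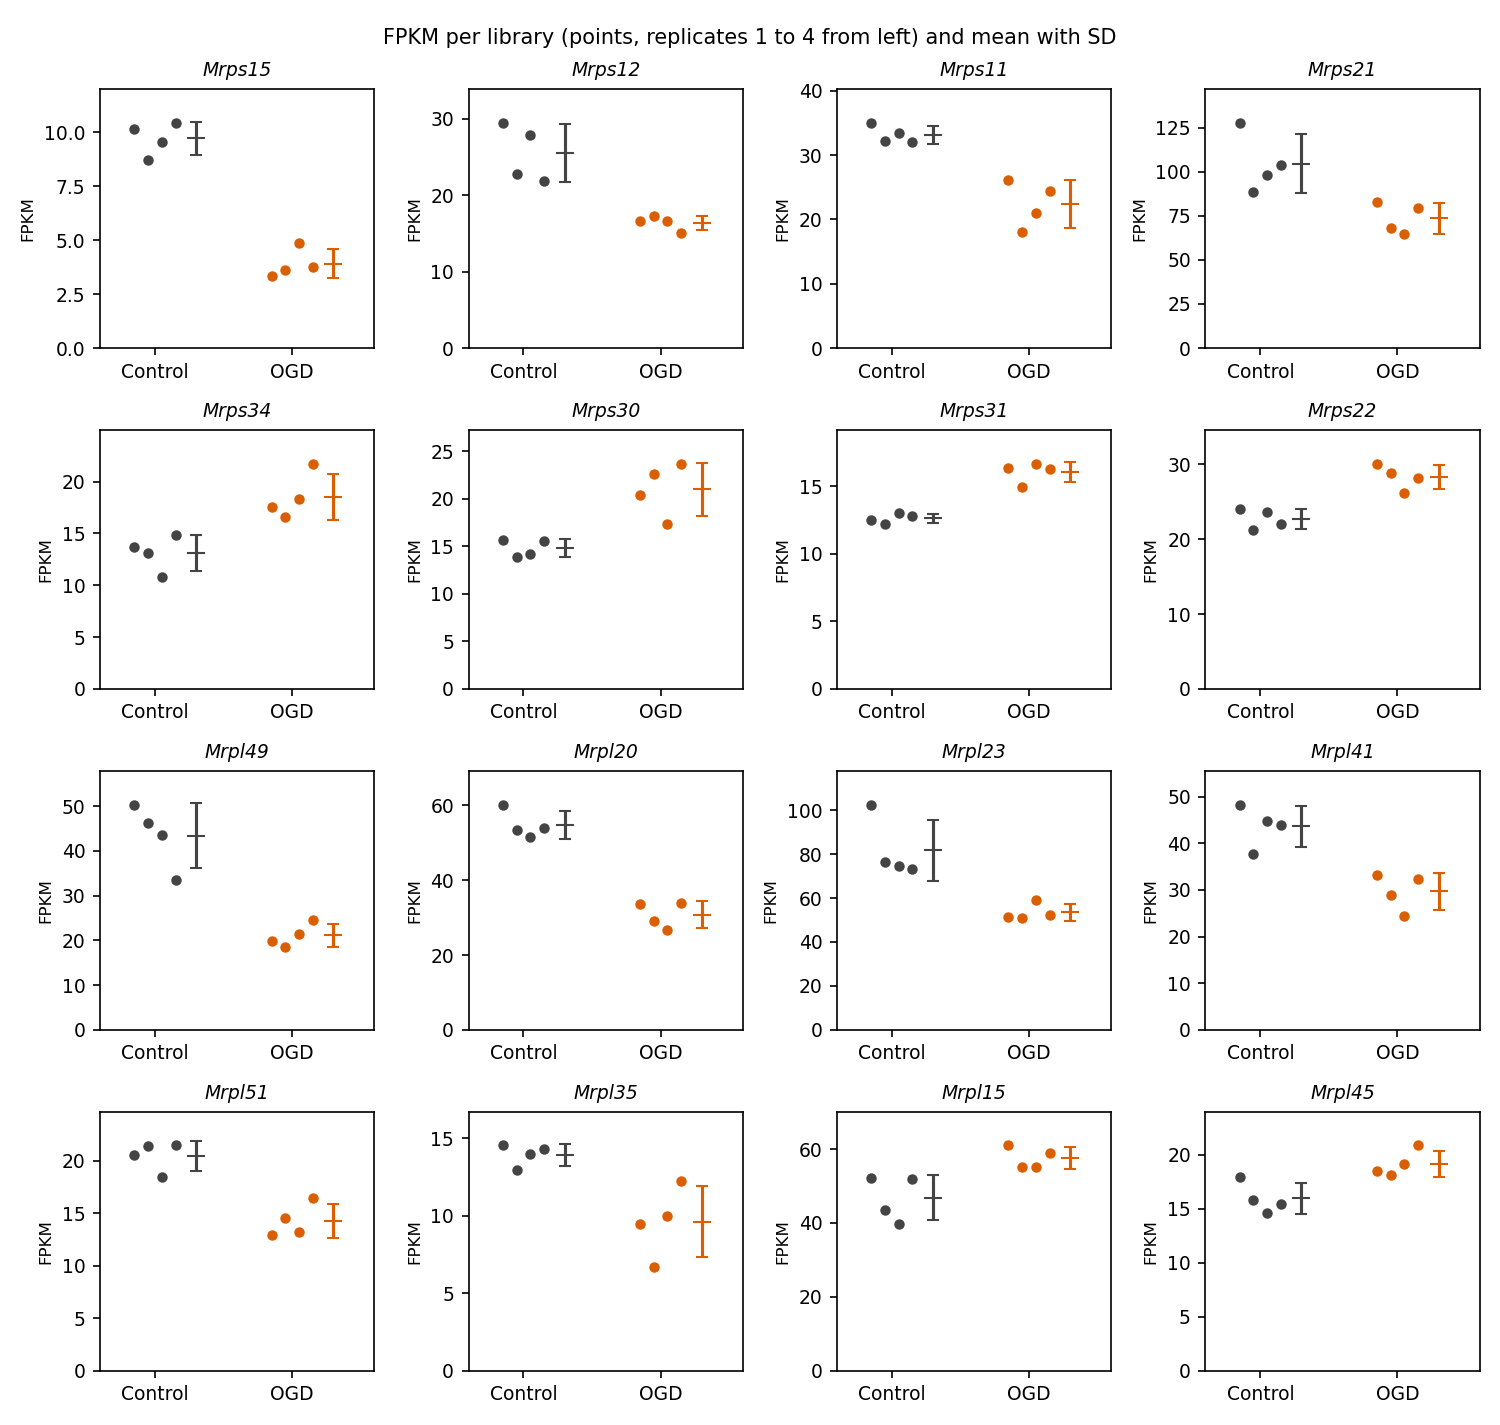
FPKM in each library for 16 members, with replicates 1 to 4 from left to right in each group and the mean with SD beside them. Mrps15 and Mrpl49 show groups far apart, and Mrps30 and Mrps34 show the opposite direction.

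In the large subunit the largest called fall was that of Mrpl49 (ENSRNOG00000020975), a mitochondrion-specific protein. Mrpl49 levels were 50.4, 46.2, 43.6 and 33.4 FPKM in control and 19.9, 18.6, 21.5 and 24.5 FPKM in OGD libraries. Control replicate 4 was the lowest control and still above every OGD library, with means of 43.4 ± 7.20 and 21.1 ± 2.56 FPKM (SD, n = 4 each). The log2 change was -0.996 ± 0.12 (SE, limma adjusted p = 9.15e-05), just short of 2-fold, and it was -1.03 with a pseudocount of 0.1. Mrpl20, whose bacterial homologue is essential for building the large subunit, was next. The controls had 60.2, 53.4, 51.5 and 53.9 FPKM of Mrpl20 and the OGD libraries 33.5, 29.0, 26.6 and 34.0 FPKM. The controls lay close together and all OGD libraries were well below them, with a log2 difference of -0.81 ± 0.09 (SE, limma adjusted p = 3.80e-05).

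Mrpl23 lies beside the exit of the tunnel through which the new chain leaves, and was the most abundant large subunit member in control cells. Mrpl23 was measured at 103, 76.5, 74.8 and 73.4 FPKM in the control and at 51.6, 50.8, 59.1 and 52.4 FPKM in the OGD libraries. Control replicate 1 stood apart from the other 3 controls, yet the lowest control was above the highest OGD library. The log2 change was -0.59 ± 0.10 (SE, limma adjusted p = 8.63e-04), and -0.48 without control replicate 1. Mrpl27, the second most abundant, belongs to the peptidyl transferase region. Control libraries held Mrpl27 at 80.9, 67.1, 67.1 and 61.2 FPKM, and OGD libraries at 65.7, 61.2, 64.6 and 69.7 FPKM. Its groups overlapped and the log2 change was -0.07 ± 0.08 (SE, limma adjusted p = 0.496).

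Mrpl41, a mitochondrion-specific member, fell. Mrpl41 levels were 48.3, 37.8, 44.7 and 43.9 FPKM in control and 33.2, 29.0, 24.4 and 32.3 FPKM in OGD libraries. The OGD libraries lay below all controls, with OGD replicate 3 the lowest, and the log2 change was -0.55 ± 0.10 (SE, limma adjusted p = 0.00142). Mrpl35 is the homologue of bacterial L35. The controls had 14.5, 12.9, 14.0 and 14.3 FPKM of Mrpl35 and the OGD libraries 9.46, 6.70, 10.00 and 12.3 FPKM. The OGD libraries spread widely, from OGD replicate 2 to OGD replicate 4, and stayed below the controls, with a log2 difference of -0.52 ± 0.14 (SE, limma adjusted p = 0.00997). Mrpl51, another mitochondrion-specific protein, fell with little spread. Mrpl51 was measured at 20.5, 21.4, 18.4 and 21.5 FPKM in the control and at 12.9, 14.5, 13.2 and 16.5 FPKM in the OGD libraries. No library overlapped, and the log2 change was -0.49 ± 0.09 (SE, limma adjusted p = 0.00102).

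The other 7 large subunit falls had log2 changes of -0.47 (Mrpl17), -0.41 (Mrpl55), -0.40 (Mrpl18), -0.39 (Mrpl54), -0.37 (Mrpl4), -0.32 (Mrpl10) and -0.29 (Mrpl21). Of these, Mrpl10 and Mrpl21 had overlapping groups, and each lost its call when any 1 of 5 libraries was left out. Mrpl10 anchors the stalk that recruits translation factors. Its stalk partner Mrpl12 did not pass the test, at 21.6 ± 1.65 and 19.7 ± 0.885 FPKM (log2 change -0.12).

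Mrpl15 and Mrpl45 were the large subunit members that rose, against 5 with the rescaling outside mitochondrially encoded genes and 4 without control replicate 1. Mrpl15 is the homologue of bacterial L15. Control libraries held Mrpl15 at 52.1, 43.6, 39.8 and 51.8 FPKM, and OGD libraries at 61.0, 55.1, 55.0 and 59.0 FPKM. OGD replicates 2 and 3 stood closest to the controls, the groups did not overlap, and the log2 change was 0.30 ± 0.09 (SE, limma adjusted p = 0.0178). Mrpl45 faces the inner membrane at the tunnel exit and helps to hold the ribosome there. Mrpl45 levels were 17.9, 15.8, 14.6 and 15.4 FPKM in control and 18.5, 18.1, 19.2 and 20.9 FPKM in OGD libraries. The lowest OGD library lay just above the highest control, with a log2 difference of 0.25 ± 0.08 (SE, limma adjusted p = 0.0229). Without control replicate 3 neither passed, at adjusted p = 0.0533 for Mrpl15 and 0.0747 for Mrpl45, which left 0 large subunit rises by limma; 2 had an unadjusted p under 0.05. Mrpl15 also missed the threshold without OGD replicate 1, and Mrpl45 without control replicate 4 or OGD replicate 4.

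Mrpl33 had the widest spread of all tested members, with a control SD of 75.5% of its mean. The controls had 25.6, 2.73, 22.9 and 7.97 FPKM of Mrpl33 and the OGD libraries 3.30, 0, 7.59 and 7.49 FPKM. Control replicates 1 and 3 were far above control replicates 2 and 4, of which control replicate 2 lay within the OGD range and control replicate 4 just above it, and the log2 change of -1.52 ± 0.74 (SE) did not pass the test (limma adjusted p = 0.109). It passed without control replicate 2 (log2 change -2.09, limma adjusted p = 0.0312), and over all alternatives the adjusted p ran from 0.00523 to 0.273. OGD replicate 2 was listed at 0, and without it the log2 change was -0.83. Mrpl40, a protein of the central protuberance, was the lowest tested member. Mrpl40 was measured at 5.07, 5.21, 5.08 and 5.42 FPKM in the control and at 5.39, 5.58, 6.45 and 5.98 FPKM in the OGD libraries. Its groups overlapped, with a log2 difference of 0.14 ± 0.09 (SE, limma adjusted p = 0.194).

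3 rows of the table carry the lower-case symbols mrpl9, mrpl11 and mrpl24, which the case-sensitive rule did not take. Control libraries held mrpl9 at 31.1, 25.4, 26.6 and 27.5 FPKM, and OGD libraries at 40.3, 34.1, 40.1 and 39.6 FPKM, and it rose with a log2 difference of 0.46 ± 0.08 (SE, limma adjusted p = 8.57e-04). The OGD libraries of mrpl9, the homologue of bacterial L9, all lay above its controls. mrpl11 levels were 23.3, 17.1, 18.7 and 21.2 FPKM in control and 8.56, 10.6, 12.1 and 12.7 FPKM in OGD libraries, and it fell with a log2 difference of -0.82 ± 0.13 (SE, limma adjusted p = 3.80e-04), with no overlap. The protein of mrpl11 forms the base of the stalk. The controls had 7.58, 6.86, 7.66 and 6.25 FPKM of mrpl24 and the OGD libraries 6.78, 7.31, 6.16 and 6.04 FPKM, with overlapping groups and a log2 difference of -0.09 ± 0.10 (SE, limma adjusted p = 0.436). With these rows added, the large subunit by gene name had 3 rises and 14 falls, which leaves out the rise of Mrps30.

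Summed over the members in FPKM, mean levels in OGD were below those of the controls in both subunits, with overlap between the groups. The small subunit members summed to 932, 770.2, 827 and 834 FPKM in the control libraries and 769, 742, 767 and 829 FPKM in the OGD libraries. These sums overlapped between the groups, with means of 840.6 ± 67.2 and 776.6 ± 36.8 FPKM (SD, n = 4 each), a difference of -7.61%. The large subunit members summed to 1320.0, 1100.0, 1143 and 1162 FPKM in the control libraries and 1030.4, 995, 1035 and 1108 FPKM in the OGD libraries. Their means were 1181 ± 96.0 and 1042 ± 47.4 FPKM (SD, n = 4 each), a difference of -11.8%, and OGD replicate 4 lay above control replicate 2. No p is given for a sum over the members.

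The ratio of the large to the small sum separated the groups. It was 1.42, 1.43, 1.38 and 1.39 in the control libraries and 1.34, 1.34, 1.35 and 1.34 in the OGD libraries. Every OGD ratio was below every control ratio, with means of 1.41 ± 0.0205 and 1.34 ± 0.00542 (SD, n = 4 each). The difference kept its direction without Mrpl33 (1.39 against 1.34), by structure (1.72 against 1.67) and with the lower-case rows added (1.47 against 1.41). Mrpl49, Mrpl23 and Mrpl20 were the large subunit genes with the largest falls in FPKM, a choice made after their values were seen. Without these 3 genes the control ratio was 1.19 ± 0.0111 and the OGD ratio 1.21 ± 0.00357 (SD, n = 4 each). Since that removal took falls from the large subunit alone, it could only raise the OGD ratio against the control ratio, and nothing is drawn from the turn of the order.

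**Figure D3:**
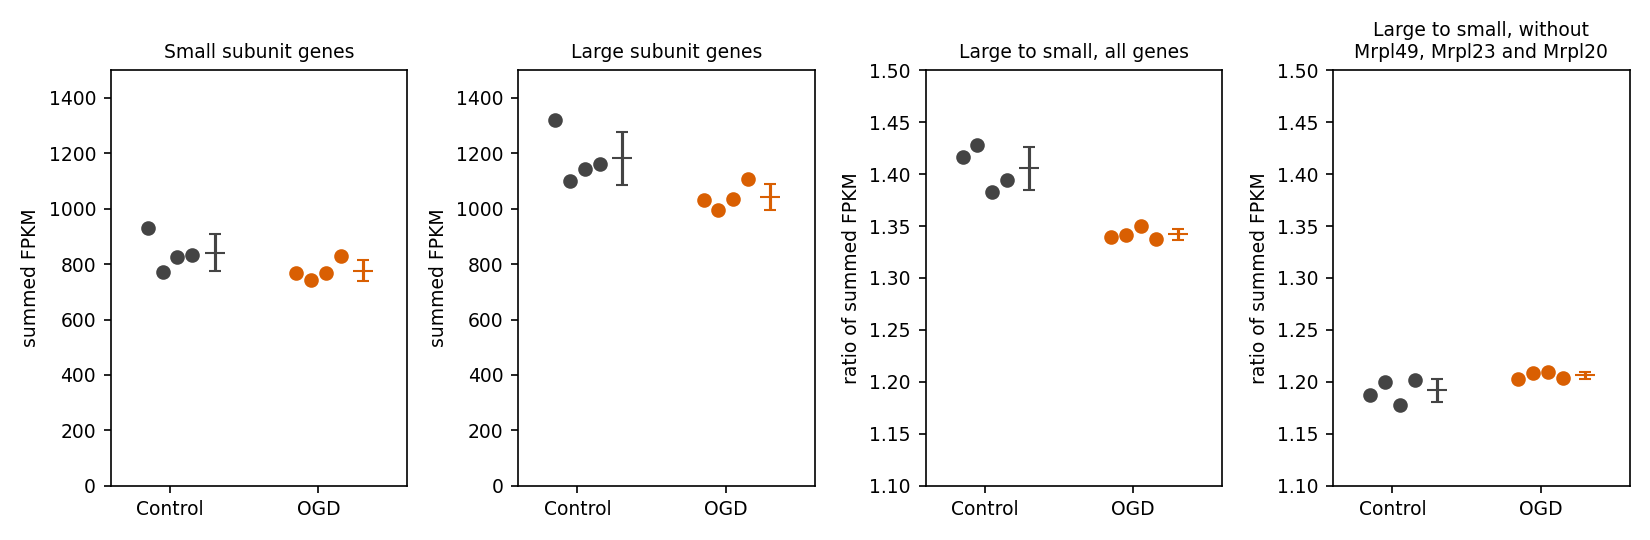
Summed FPKM of the small and the large subunit members in each library (axis from 0), and the large-to-small ratio with all members and without Mrpl49, Mrpl23 and Mrpl20 (axis from 1.1 to 1.5). With all members the control ratios are 1.38 to 1.43 and the OGD ratios 1.34 to 1.35, and without the 3 genes, which were taken out for their falls, the order of the group means turns.

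Members listed as having a bacterial homologue and those listed as having none were counted beside all tested genes. The shares of all tested genes were 22.7% higher and 26.8% lower. Of 40 tested members listed as conserved 3 (7.5%) rose and 16 (40.0%) fell, with a median log2 change of -0.10. Of 26 tested members listed as without a bacterial homologue 4 (15.4%) rose and 6 (23.1%) fell, with a median of 0.0029. The remaining 4 tested members, on neither list, are Mrps30, Mrps18a, Mrps36 and Mrpl57, and they may belong to either set. Place on a list was not checked against protein sequences. The lower-case rows mrpl9, which rose, mrpl11, which fell, and mrpl24, which did not pass, are listed as conserved but not counted here. A difference between these sets was not tested.

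The share of falls differed along the range of levels, which was not tested. Of all tested genes 22.7% were higher and 26.8% lower. Among the 23 members of highest control level 1 (4.35%) rose and 11 (47.8%) fell, with a median log2 change of -0.18. Among the 23 in the middle 2 (8.70%) rose and 8 (34.8%) fell, with a median of -0.10. Among the 24 lowest 5 (20.8%) rose, near the share of all tested genes, and 4 (16.7%) fell, with a median of 0.09. Across the 70 members, which share the 8 libraries and are not independent replicates, Spearman's rho between the control level and the log2 change was -0.30, against -0.12 across all tested genes. The control libraries enter both quantities.

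**Figure D4:**
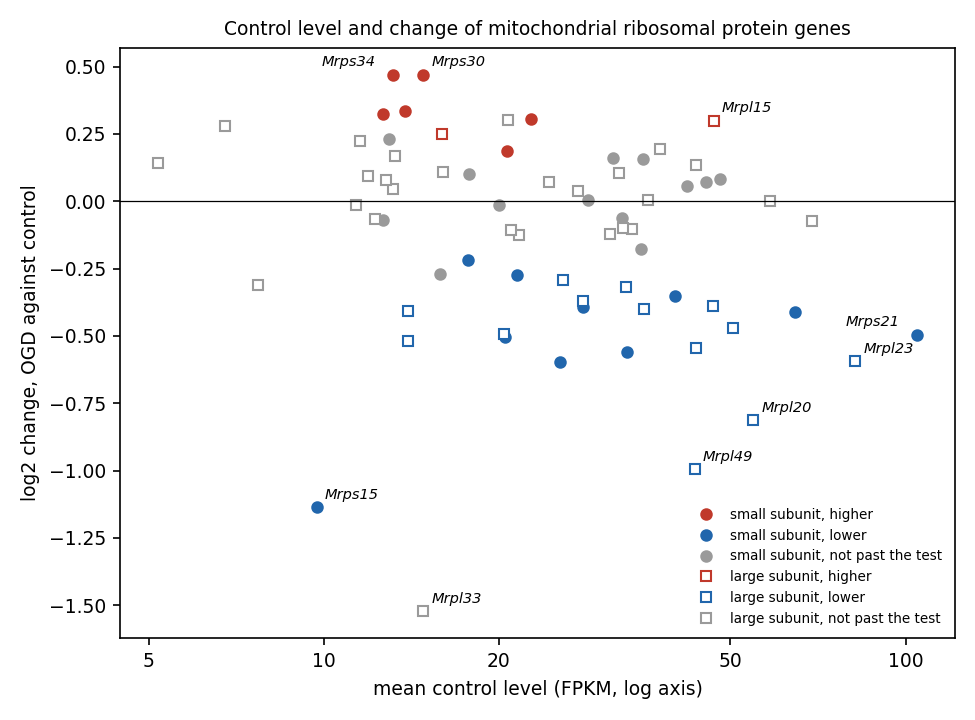
Mean control FPKM (log axis) against the log2 change in OGD for the 70 tested members, by subunit. The rises lie mostly at the lower levels, while falls such as Mrps21, Mrpl23 and Mrpl20 lie at the upper end.

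Promoter sequences were matched to ask what the members share beyond their names. A RefSeq promoter table (GRCr8, 250 bases before to 50 after each start) held 59 of the 74 members. Motifs were searched on both strands: GCGCATGCG (a core of the NRF1 site), CCGGAAG (ETS factors, among them GABP), AAGATGGCG (YY1), GGGCGG (SP1), CACGTG (the E-box of MYC), ACGTG (the core of hypoxia response elements, contained in CACGTG) and TGATGNAA (ATF4). The NRF1 core was in 5 members, or 8.47%, against 1.66% of all 27457 promoters and 3.74% of the 8205 promoters of tested genes. The ETS motif was in 19 members, or 32.2%, against 9.22% and 18.7%, and the YY1 motif in 9, or 15.3%, against 1.93% and 4.35%. These 3 motifs, all long linked to nuclear genes for mitochondrial proteins, were thus more frequent among the members than in either set, which is a description without a test.

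The other motifs were no more frequent among the members than among promoters of tested genes, except the ATF4 motif. GGGCGG was in 31 members (52.5%, against 34.9% of all promoters and 65.6% of those of tested genes). CACGTG was in 5 (8.47%, against 6.65% and 9.69%) and ACGTG in 13 (22.0%, against 19.7% and 26.2%). TGATGNAA was in 2 (3.39%, against 3.82% and 1.68%). Among members with a promoter entry, the ETS motif was in 1 of 5 that rose, 5 of 20 that fell and 11 of 31 that did not pass the test. ACGTG was in 0 of 5 that rose, 5 of 20 that fell and 7 of 31 that did not pass. A match is a stretch of letters and not a bound site.

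17 of the 59 members start within 1000 bases of a gene on the opposite strand, which makes 16 distinct head-to-head pairs that share the stretch between their starts. Both genes were tested in 12 pairs. In 0 of the 12 did both genes pass the limma test in the same direction, and in 0 at an unadjusted p under 0.05. Over all tested genes 22.7% were called higher and 26.8% lower, and 12 pairs are too few to draw anything from this 0. In 2 pairs the member fell and its neighbour rose, in 8 pairs only 1 gene passed, and in 2 pairs neither did. The members of the 2 opposite pairs were Mrps27, which kept its call in 8 of 17 alternatives, and Mrps7, whose groups overlapped. The signs were alike in 5 of the 12 pairs. Partners can share reads near their starts where transcripts overlap, and use of strand in the counting is not given in the sources used here.

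The stretches between the starts of 4 pairs are shown, a choice made after their values were seen. Mrps27 with Ptcd2 and Mrps7 with Gga3 had opposite calls, while in the others only 1 gene passed. Other pairs in which only 1 gene passed are not shown, and a difference between the genes of a pair was not tested. The stretches are RefSeq sequence of GRCr8, which is not the build of the expression values. They are read 5′ to 3′ on the member's strand, and capitals mark matches to the motifs above on either strand. The coordinates are chr1:212779328-212779512 (minus strand) for Mrpl49 and Fau, chr1:142117031-142117263 (plus strand) for Mrps11 and Mrpl46, chr2:32474114-32474203 (plus strand) for Mrps27 and Ptcd2, and chr10:101342392-101342641 (plus strand) for Mrps7 and Gga3.
Mrpl49 and Fau: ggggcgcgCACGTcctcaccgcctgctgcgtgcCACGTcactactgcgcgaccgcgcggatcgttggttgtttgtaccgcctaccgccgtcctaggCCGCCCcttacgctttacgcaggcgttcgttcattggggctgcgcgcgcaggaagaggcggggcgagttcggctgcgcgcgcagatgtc
Mrps11 and Mrpl46: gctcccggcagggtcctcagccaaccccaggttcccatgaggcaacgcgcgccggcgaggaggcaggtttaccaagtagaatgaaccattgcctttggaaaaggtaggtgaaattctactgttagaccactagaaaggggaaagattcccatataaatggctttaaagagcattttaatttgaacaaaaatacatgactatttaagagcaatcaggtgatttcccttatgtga
Mrps27 and Ptcd2: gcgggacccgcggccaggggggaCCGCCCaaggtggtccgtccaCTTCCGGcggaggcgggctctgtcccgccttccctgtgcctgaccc
Mrps7 and Gga3: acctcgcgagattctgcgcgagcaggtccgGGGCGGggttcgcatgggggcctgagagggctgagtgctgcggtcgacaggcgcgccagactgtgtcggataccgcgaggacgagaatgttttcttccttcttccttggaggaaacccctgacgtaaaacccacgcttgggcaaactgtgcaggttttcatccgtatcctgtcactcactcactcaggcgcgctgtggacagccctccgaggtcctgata

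The stretch shared by Mrpl49 and Fau holds 2 matches to ACGTG and 1 to GGGCGG. Mrpl49 fell by 1.00 on the log2 scale, while Fau, which encodes a cytosolic ribosomal protein fused to a ubiquitin-like domain, went from 283 to 326 FPKM (log2 change 0.21, limma adjusted p = 0.134) and did not pass the test. Mrps11 and Mrpl46 are both members and share a stretch with none of the motifs: Mrps11 fell, and Mrpl46 stood at 12.2 ± 0.952 and 11.7 ± 1.39 FPKM (log2 change -0.07, limma adjusted p = 0.594). The short stretch of Mrps27 and Ptcd2, a pentatricopeptide protein of mitochondrial RNA processing, holds CCGGAAG and GGGCGG. Mrps27 fell while Ptcd2 rose from 5.00 to 7.91 FPKM (log2 change 0.58, limma adjusted p = 0.00362). For 250 bases next to Mrps7, shared with Gga3, the match is GGGCGG. Mrps7 fell while Gga3, a sorting adaptor of the Golgi, rose from 11.1 to 23.2 FPKM (log2 change 0.95, limma adjusted p = 7.75e-04). The promoter windows searched above reach beyond these stretches, and those of Mrpl46 and Mrps27 hold the YY1 motif outside the stretch shown.

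**Figure D5:**
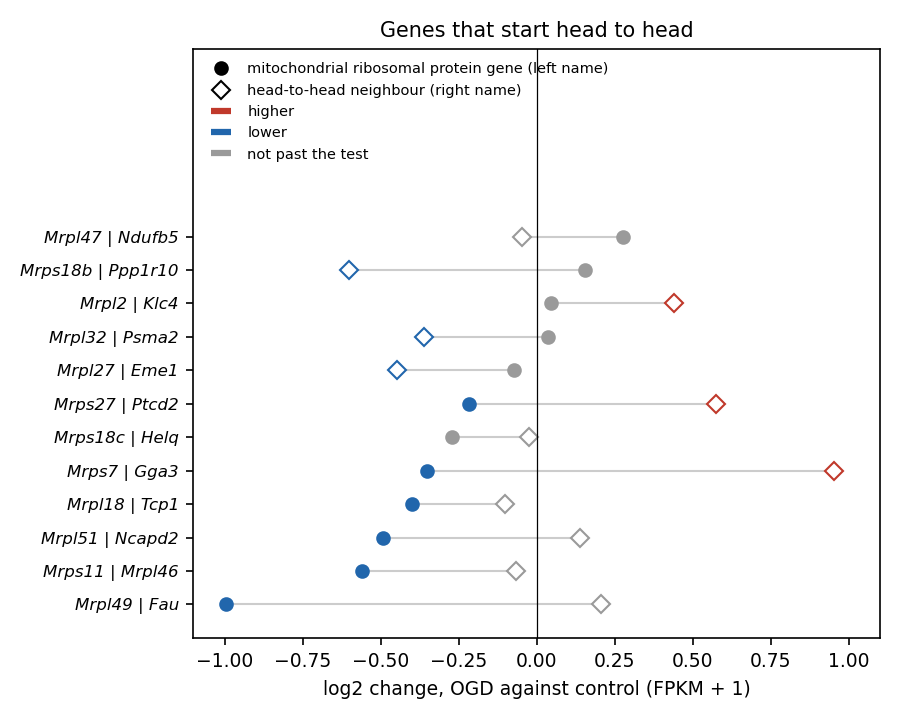
Log2 change of each member and of the gene that starts head to head with it, for the 12 pairs in which both were tested. Mrps7 with Gga3 and Mrps27 with Ptcd2 show called changes in opposite directions, and no pair shows called changes in the same direction. The call of Mrps27 was lost in several alternatives, and the groups of Mrps7 overlapped.

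The genes that build and serve the mitochondrial ribosome were read from lists, whose values are means ± SD of the 4 libraries of a group. Of 5 ribosomal subunits whose symbols lie outside the rule (Dap3, Ptcd3, Chchd1, Gadd45gip1 and Ict1), Ptcd3 of the small subunit fell from 25.002 ± 1.03 to 19.1 ± 1.91 FPKM (log2 change -0.37, limma adjusted p = 0.00294). Gadd45gip1 of the large subunit rose from 28.7 ± 2.94 to 34.7 ± 4.13 FPKM (log2 change 0.26, limma adjusted p = 0.0406), a call lost with no filter, with median-centring, in limma without the trend and when any 1 of 5 libraries was left out. Of 26 tested factors for assembly and ribosomal RNA modification 9 (34.6%) rose and 2 (7.69%) fell, against 22.7% and 26.8% of all tested genes. Their median log2 change was 0.09, from 0.05 without control replicate 1 to 0.16 without control replicate 2, and a filter of 5 FPKM gave 0.26. Rises numbered 6 with no filter, and also on leaving out either OGD replicate 1, OGD replicate 4 or control replicate 3. The RNA helicase Dhx30 rose from 20.7 ± 0.349 to 32.0 ± 0.878 FPKM (log2 change 0.60, limma adjusted p = 1.72e-05), and the GTPase Noa1 from 12.5 ± 0.546 to 20.3 ± 1.74 FPKM (log2 change 0.66, limma adjusted p = 6.75e-05). Among the members themselves 8 of 70 rose and 23 fell.

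Of 15 translation factors 5 (33.3%) rose and 3 (20.0%) fell, against 22.7% and 26.8% of all tested genes. Their median log2 change was -0.03, and it turned to 0.0085 with the rescaling outside mitochondrially encoded genes. The 3 that fell were Gfm1, the elongation factor of translocation, from 16.7 ± 0.797 to 12.3 ± 0.695 FPKM (log2 change -0.41, limma adjusted p = 8.56e-04), and the recycling factors Gfm2, from 9.75 ± 1.02 to 6.14 ± 0.583 FPKM (log2 change -0.59, limma adjusted p = 6.16e-04), and Mrrf, from 6.34 ± 0.570 to 4.39 ± 0.384 FPKM (log2 change -0.44). Of 15 tested mitochondrial tRNA synthetases 1 (6.67%) rose and 4 (26.7%) fell, against the same shares of all tested genes, 22.7% and 26.8%. The rise was that of Wars2 for tryptophan, from 3.43 ± 0.0628 to 7.52 ± 0.223 FPKM (log2 change 0.94, limma adjusted p = 7.96e-06). The first fall by p was that of Tars2 for threonine, from 11.7 ± 0.350 to 6.67 ± 0.167 FPKM (log2 change -0.73, limma adjusted p = 1.96e-05).

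Of 11 tested genes for maintaining and transcribing mitochondrial DNA 2 (18.2%) rose and 2 (18.2%) fell, against 22.7% and 26.8% of all tested genes. Polrmt, the RNA polymerase, rose from 3.33 ± 0.273 to 7.65 ± 1.03 FPKM (log2 change 0.99, limma adjusted p = 4.19e-05), and Polg, the catalytic subunit of the DNA polymerase, fell from 91.7 ± 7.49 to 41.0 ± 5.39 FPKM (log2 change -1.15, limma adjusted p = 6.65e-06). The helicase Peo1 rose (log2 change 0.43), and the single-strand binding protein Ssbp1 fell (log2 change -0.27, limma adjusted p = 0.0321) with overlapping groups, a call lost with no filter and when any 1 of 5 libraries was left out. Of the 13 proteins encoded by mitochondrial DNA, the products of this ribosome, 5 (38.5%) fell and 0 rose by limma. All tested genes had shares of 26.8% lower and 22.7% higher. At an unadjusted p under 0.05, 0 of the 13 were higher, and both counts of rises were also 0 without the trend. Quantile normalization gave 1 rise. The 5 that fell are all NADH dehydrogenase subunits, the first by p being Mt-nd6, from 2813 ± 222 to 1401 ± 347 FPKM (log2 change -1.04), and Mt-nd4, from 58.2 ± 2.87 to 33.8 ± 8.86 FPKM (log2 change -0.80). Values of Mt-nd6 and its neighbours are taken as uncertain, since genes on both strands can share reads there and the handling of strand is not given. Whether they did was not tested. The value of Mt-nd4 is uncertain too: its control mean of 58.2 FPKM was far below that of Mt-nd4l, at 3342 FPKM. The reason was not tested.

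Of 14 tested regulators of nuclear genes for mitochondrial proteins 5 (35.7%) rose and 0 fell by limma, while 5 were lower at an unadjusted p under 0.05. The shares of all tested genes were 22.7% higher and 26.8% lower. Without OGD replicate 4, 3 fell, and 1 fell with quantile normalization, with median-centring and without control replicate 1, control replicate 2 or OGD replicate 3. In limma without the trend 0 fell. Atf4, the factor of the integrated stress response, rose from 93.1 ± 4.51 to 255 ± 20.9 FPKM (log2 change 1.44, limma adjusted p = 1.98e-07), and Myc from 61.8 ± 4.99 to 144 ± 18.4 FPKM (log2 change 1.20, limma adjusted p = 4.57e-06). Pprc1, Hif1a and Ppargc1a also rose, with log2 changes of 0.61, 0.38 and 0.52. Of 66 tested proteins of the cytosolic ribosome 30 (45.5%) rose and 0 fell by limma, against 22.7% and 26.8% of all tested genes. Their median log2 change was 0.23, and 0 were lower at an unadjusted p under 0.05 (0 also without the trend). With quantile normalization, the rescaling and median-centring 0 fell. The number of rises depended on single libraries: it was 14 without control replicate 3, 17 without control replicate 2, 18 without control replicate 4 or OGD replicate 1, 19 without OGD replicate 4 and 39 without control replicate 1. It was 19 with median-centring or no filter and 40 with quantile normalization or the rescaling. The first by p were Rps15a, from 584 ± 82.9 to 833 ± 46.4 FPKM (log2 change 0.52, limma adjusted p = 0.00140), and Rpl34, from 361 ± 17.7 to 483 ± 48.4 FPKM (log2 change 0.41, limma adjusted p = 0.00177). Reads of cytosolic ribosomal proteins can be split with near-identical pseudogenes.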

How the data were processed

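The FPKM table of 4 control and 4 OGD libraries, 1 value per gene and library, was used as deposited by the authors, with the unit per the file headers. Column-purified RNA went into strand-specific libraries, per the labels' protocols. Trimmomatic and FastQC are named per the submitters' processing notes, as is the genome (Rnor_6.0, rn6). What is not given in the sources used here is the aligner, the FPKM program, the annotation and the handling of strand. Since FPKM holds no counts, only relative depth could be had, from ratios to control replicate 1 of genes up to 0.5 FPKM. After division by the fitted depth, 82.8% to 85.8% lay within 0.01 (log2) of a fraction of small whole numbers. The depth was fitted on the same ratios, so this share is no independent check. Genes of at least 1 FPKM in at least 4 libraries entered limma 3.58.1 (R 4.3.3, pseudocount 1, trend on, group as the model, Benjamini-Hochberg adjustment), a procedure tested on simulated data. Figures and tables were made with Python 3.11.15. The members and lists were chosen with earlier results of these data known. Values in every library were given for up to 6 rises and 6 falls per subunit among called members, the 2 highest members and the lowest of each subunit, and Mrps30, Mrps18a and Mrps36, and of each list the 2 genes with the smallest p were named. Mrpl33, Mrpl12, Mrpl46 and the head-to-head partners were named after their values were seen. Synonyms and neighbours came from a RefSeq gene table (GRCr8). Mrpl30 and Aurkaip1 stand on rows shared with another gene and are given no value.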

Additional observations from a re-analysis of the deposited data

Results flagged for a closer look

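In 7 of 144 groups of 4 libraries, 1 library of a tested member or summed value stood far from the other 3 by Dixon's criterion (the gap to its nearest neighbour over the group's range). Chance gives about 7.2 such groups, or 1 in 20. In control replicate 1, Mrpl23 was at 102.6 FPKM, with the other 3 controls at 73.4 to 76.5 FPKM, and Mrpl3 at 40.8 FPKM, with the others at 36.5 to 37.2 FPKM. In OGD replicate 4, Mrpl19 was at 16.6 FPKM (others 12.4 to 12.9 FPKM) and Mrps26 at 53.3 FPKM (others 45.3 to 46.3 FPKM). In OGD replicate 3, Mrps14 was at 14.6 FPKM (others 18.4 to 19.1 FPKM) and Mrps18b at 43.5 FPKM (others 38.1 to 38.2 FPKM). In OGD replicate 1, Mrps2 was at 21.9 FPKM (others 24.1 to 24.3 FPKM).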

How the results depend on the processing

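The alternatives were a pseudocount of 0.1, no filter, a filter of 5 FPKM, quantile normalization, rescaling outside mitochondrially encoded genes, median-centring, limma without trend, the replicate block, each library left out, and, added after seeing the data, control replicate 1 and OGD replicate 4 left out together. Of the 31 called members, 23 (4 higher, 19 lower) were called in every alternative and no called change turned its direction. The 8 that lost the call somewhere were Mrps2, Mrps6, Mrps14, Mrps27, Mrpl10, Mrpl15, Mrpl21 and Mrpl45, and 8 of the 39 others passed under at least 1 alternative. Large subunit rises, 2 in the reported fit, were 5 with the rescaling and ranged from 0 (without control replicate 3) to 4 (without control replicate 1) when 1 library was left out. Over the same alternatives the rises of all members ranged from 5 to 12; the cause was not tested. With 1 library left out, the OGD difference of the sums ranged from -4.14% (without control replicate 1) to -10.1% (without control replicate 2) in the small and from -8.21% to -13.8% in the large subunit. With the replicate number as a block, 7 members rose and 24 fell (5 and 10 in the small, 2 and 14 in the large subunit). Under the block Mrpl33 also passed (limma adjusted p = 0.00523), as did 1 fall among the 14 regulators. Deviations of same-numbered libraries from their group means correlated at -0.22, 0.16, 0.01 and 0.09. These values show no clear pairing by number, but so few libraries cannot exclude it. Depth in fragments is unknown, so counting error could not be given.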

Other observations

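Assembly factors of the mitochondrial ribosome that rose, beside Dhx30 and Noa1, covered several steps, each with mean ± SD of 4 libraries. The inner membrane insertase Oxa1l, which receives the ribosome's products, rose from 29.6 ± 2.18 to 38.0 ± 1.51 FPKM (log2 change 0.35, limma adjusted p = 0.00171). Malsu1, a factor that keeps the subunits of the maturing ribosome apart, rose from 17.8 ± 1.98 to 24.4 ± 1.86 FPKM (log2 change 0.44, limma adjusted p = 0.00202). Rpusd4, a pseudouridine synthase, rose from 6.11 ± 0.643 to 10.1 ± 2.23 FPKM (log2 change 0.62, limma adjusted p = 0.00405). Mtg1, Rbfa, Mettl17 and Rnmtl1 also rose, and each of these 4 calls was lost when any 1 of 4 to 6 libraries was left out. The GTPase Gtpbp10, a large subunit assembly factor, fell from 9.33 ± 0.592 to 5.98 ± 1.02 FPKM (log2 change -0.58, limma adjusted p = 0.00160), and Ybey was low and fell from 1.08 ± 0.0844 to 0.446 ± 0.138 FPKM (log2 change -0.53, limma adjusted p = 0.00618).

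The 5 translation factors that rose serve initiation, elongation, release and RNA turnover. Mtfmt, which formylates the initiator tRNA, rose from 4.30 ± 0.666 to 6.86 ± 1.48 FPKM (log2 change 0.56, limma adjusted p = 0.00864), and the initiation factor Mtif2 from 4.03 ± 0.438 to 5.56 ± 0.573 FPKM (log2 change 0.38, limma adjusted p = 0.0106). The release factor Mtrf1l rose from 4.84 ± 0.585 to 6.99 ± 0.825 FPKM (log2 change 0.45, limma adjusted p = 0.00566). Tsfm, the exchange factor of Tufm, and the nuclease Pnpt1 also rose, with log2 changes of 0.36 and 0.34. The call of Tsfm was lost without control replicate 3 or OGD replicate 3. These genes were named after their values were seen.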
